A study of Homo sapiens with 12 samples.

Results

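The genes described here are those of mitochondrial complex I. They were taken from the Huh7 expression table as the rows whose gene name begins with NDUF and whose description does not call them a pseudogene, which gave 51 of 60666 listed genes. They were split by textbook role into 7 core subunits, 30 accessory subunits and 8 assembly factors of the NDUFAF series, with 6 further NDUF-named rows that are not subunits or factors of the complex. The 63 NDUF-named pseudogene rows were left out, and 53 of them were listed at 0 in every library.

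Complex I is the first enzyme of the respiratory chain. Its matrix arm takes electrons from NADH through a flavin and a row of iron-sulphur clusters to ubiquinone, and its membrane arm pumps protons. Mitochondrial DNA encodes the core subunits of the membrane arm, the nucleus encodes the core subunits of the matrix arm and all accessory subunits, and assembly factors join the modules without staying in the finished enzyme.

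The study compared Huh7, an established line of hepatocellular carcinoma cells, carrying a control sequence with Huh7 cells in which FAM111B, a serine protease gene, was silenced by a lentiviral short hairpin RNA (shFAM111B) and puromycin selection. There were 3 control and 3 shFAM111B libraries of poly(A)-selected RNA, all from cells grown in the same medium. The study lists a single hairpin sequence for FAM111B. The sources do not say whether the cells were a single clone, nor that the 3 libraries of a group came from separate cultures, so the p-values below measure only the spread between these libraries. A further 6 libraries, of Hep3B cells, were not analysed here.

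Levels are TPM (a transcript abundance scaled for transcript length and to the same total in each library). Fold changes are differences of log2(TPM + 1), shFAM111B minus control, for the 14394 genes that reached 1 TPM in 3 or more libraries, which understate the change of low genes. They were tested with limma's moderated test and Benjamini-Hochberg adjustment over all tested genes, and a gene rose or fell where its adjusted p was under 0.05. FAM111B itself was at 7.84, 8.29 and 7.99 TPM in the control libraries and at 0.96, 1.13 and 0.84 TPM in the shFAM111B libraries, a log2 fold change of -2.20 ± 0.113 (SE, limma adjusted p = 6.09e-06). All 8 hepatocyte markers examined were at 1 TPM or more in every library, and they summed to 22182 to 22362 TPM in control and 37706 to 42644 TPM in shFAM111B libraries. Of these, 4 rose, from a log2 fold change of 0.50 for GPC3 to 1.66 for AFP, and 4 fell, from -0.29 for SERPINA1 to -2.27 for APOB. SERPINA1 turned to 0.17 under median-of-ratios and 0.13 under upper-quartile scaling. The part of these changes in the results below was not tested. A further 8 leukocyte, endothelial and fibroblast markers summed to 13.3 to 14.2 TPM in control and 12.8 to 19.4 TPM in shFAM111B libraries. Only 3 of them, CD14, PECAM1 and COL1A2, were at 1 TPM or more in every library. CD3E, DCN and VWF stayed at 0.13 TPM or less, though none of the 8 was at 0 in every library. Transcripts of the mitochondrial chromosome took 19.7% to 20.2% of all TPM in control cells and 7.37% to 8.06% in shFAM111B cells. Short non-coding RNA took 0.166% to 0.495% in the controls and 4.77%, 7.05% and 0.505% in shFAM111B libraries 1, 2 and 3. The median log2 fold change of all tested genes was -0.36, and other scalings moved that median to between -0.49 and 0.03, so each direction below is given with the scalings that turn it. In bulk RNA a shift in the makeup of the culture and a shift in RNA per cell cannot be told apart.

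Promoters of 39 of the 45 subunits and NDUFAF factors were found in the RefSeq table (GRCh38.p14), each spanning 250 bases before to 50 after the gene's start. The letters GCGCANGCG, a core of the element bound by NRF1, a regulator of respiratory genes, were searched on both strands and occurred in 11 of the 39 (28.2%), against 7.79% of 27305 promoters of the same length. The letters CCGGAAGT, a core of the element of ETS factors, occurred in 1 (2.56%), that of NDUFA13, against 4.35% of all. The stretches below hold the NRF1-like letters, shown in capitals, in genes chosen to span the responses described afterwards, from the largest rise among the members (NDUFA3) through NDUFS6 and NDUFS7 to the accessory subunit that fell (NDUFA5). Each is written 5′ to 3′ on the gene's strand. The RefSeq starts differ from the outermost GENCODE v29 starts of these genes, so the stretches of NDUFS7 and NDUFA5 lie wholly within the GENCODE span and those of NDUFA3 and NDUFS6 reach into it.
NDUFA3, chr19:54102665-54102814, plus strand: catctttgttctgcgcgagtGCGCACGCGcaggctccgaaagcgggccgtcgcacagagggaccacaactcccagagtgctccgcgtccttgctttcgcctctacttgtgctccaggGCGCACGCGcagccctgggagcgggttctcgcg
NDUFS6, chr5:1801297-1801406, plus strand: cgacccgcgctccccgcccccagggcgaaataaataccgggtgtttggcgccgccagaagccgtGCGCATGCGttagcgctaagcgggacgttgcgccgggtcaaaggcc
NDUFS7, chr19:1383777-1383886, plus strand: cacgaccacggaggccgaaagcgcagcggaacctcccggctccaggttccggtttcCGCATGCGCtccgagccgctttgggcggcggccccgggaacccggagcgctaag
NDUFA5, chr7:123557919-123558028, minus strand: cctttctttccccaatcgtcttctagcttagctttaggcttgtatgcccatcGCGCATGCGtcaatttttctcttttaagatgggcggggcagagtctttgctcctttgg
The 11 genes with the NRF1-like letters had log2 fold changes from -0.41 to 2.14 with a median of 0.42, and the genes without them had a median of 0.48.

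Of the 51 members, 49 passed the filter on low values, among them all 37 subunits and all 8 NDUFAF factors. In shFAM111B cells 27 of the 37 subunits rose, 3 fell and 7 did not pass the test, where 21.1% of all tested genes rose and 50.9% fell. Every shFAM111B library lay above every control library for 27 subunits and below for 4, where 22.5% and 52.8% of all tested genes did so. At a change of at least 2-fold with an unadjusted P under 0.05, the threshold the study used, 10 subunits were higher and 1 was lower, against 6.82% and 23.7% of all tested genes. Other scalings moved these counts to 18 higher and 0 lower under median-of-ratios and upper-quartile scaling, 3 and 0 under quantile normalization and 4 and 0 after removal of the trend of fold change on transcript length and expression. The study's own comparison, not used here, gave near-equal numbers of genes up and down in Huh7 cells at this threshold. By limma on the deposited TPM, 981 genes were higher and 3409 lower. The source of this difference was not tested. The median log2 fold change was 0.54 over the subunits, 0.61 over the accessory and 0.08 over the core subunits, and -0.12 over the NDUFAF factors. By adjusted p, 35 subunits rose and 1 fell under median-of-ratios and under upper-quartile scaling. After removal of the length and expression trend 18 rose and 9 fell, so the split between rises and falls depends on the scaling. The shares of all tested genes were not counted under these other scalings, so these member counts have no background beside them. The all-gene median was 0.03 under median-of-ratios, -0.006 under upper-quartile and -0.03 under quantile scaling, and -0.06 after removal of the trend.

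**Figure D1:**
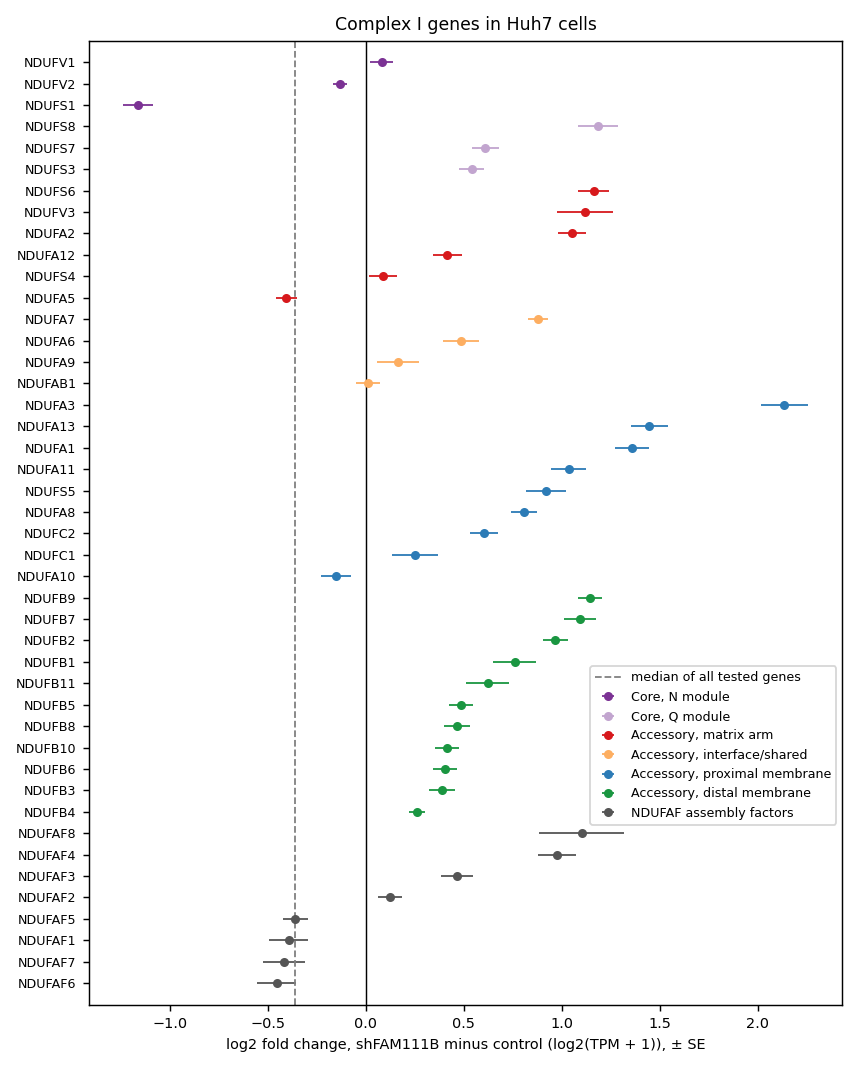
Log2 fold change of the subunits and NDUFAF factors (shFAM111B minus control, on log2(TPM + 1)) with its standard error, 3 libraries a group, coloured by the part of the enzyme the product belongs to. The member not reported by name is left out, and some genes shown are not described in the text. The dashed line marks the median of all tested genes at -0.36, and the points run from NDUFS1 at -1.16 to NDUFA3 at 2.14.

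The core subunits belong to the N module, which oxidises NADH, or the Q module, which passes electrons to ubiquinone. In the TPM as deposited none of the 3 N-module genes rose and 2 fell, while NDUFS3, NDUFS7 and NDUFS8 of the Q module rose. The median log2 fold change was -0.13 over the N module and 0.57 over the Q module, beside 0.61 over the accessory subunits. The difference between the modules was not tested and depended on the scaling, since NDUFV1 and NDUFV2 of the N module also rose under median-of-ratios and upper-quartile scaling, where NDUFS1 alone of the core subunits fell.

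NDUFS1, the largest subunit and a carrier of iron-sulphur clusters (ENSG00000023228, chromosome 2, 206114817 to 206159603, minus strand, GENCODE v29), was at 45.66, 43.64 and 40.74 TPM in control and 19.76, 19.39 and 17.36 TPM in shFAM111B libraries. The 2 groups lay far apart, with every shFAM111B library under every control library. Its log2 fold change was -1.16 ± 0.0761 (SE, limma adjusted p = 1.43e-05), and it stayed negative under every scaling, between -1.29 and -0.21. The antisense gene AC007383.2 shares 1411 exonic bases with it, at 3.09 and 0.103 TPM in the control and shFAM111B means.

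NDUFV2, an iron-sulphur partner of the flavin subunit, was at 533.27, 531.74 and 526.31 TPM in control and 486.24, 476.45 and 491.00 TPM in shFAM111B libraries. The groups did not overlap, but the step between them was small, with a log2 fold change of -0.13 ± 0.0361 (limma adjusted p = 0.014). It turned to 0.32 under median-of-ratios and 0.28 under upper-quartile scaling, and the call was lost when control library 1, control library 2 or shFAM111B library 1 was left out (adjusted p = 0.0547, 0.0558 and 0.0517). NDUFV1, which binds NADH and the flavin, was at 607.08, 595.79 and 619.78 TPM in control and 639.44, 597.79 and 694.27 TPM in shFAM111B libraries. These groups overlapped, and its log2 fold change of 0.08 ± 0.0599 did not pass the test (limma adjusted p = 0.259). It was called higher, at 0.54, under median-of-ratios scaling and lower, at -0.38, under quantile normalization (limma adjusted p = 0.000116 and 0.000894).

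NDUFS8, a Q-module subunit with iron-sulphur clusters, had the largest rise of the core subunits. It was at 470.36, 479.78 and 499.60 TPM in control and 1135.74, 938.90 and 1247.01 TPM in shFAM111B libraries. All shFAM111B libraries were above all controls, the lowest of them being library 2, and the log2 fold change was 1.19 ± 0.0999 (limma adjusted p = 4.23e-05). NDUFS7, which holds the last cluster before ubiquinone, was at 108.18, 119.38 and 116.82 TPM in control and 172.82, 164.21 and 190.28 TPM in shFAM111B libraries. NDUFS3, a scaffold of the same module, was at 89.33, 92.76 and 101.23 TPM in control and 144.81, 131.41 and 137.06 TPM in shFAM111B libraries.

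Neither NDUFS7 nor NDUFS3 had overlapping groups. Their log2 fold changes were 0.61 ± 0.0689 and 0.54 ± 0.064 (limma adjusted p = 0.000177 and 0.000224), and they, like NDUFS8, kept their sign under every scaling. NDUFS3 shares 721 exonic bases on the same strand with PTPMT1, which was at 22.4 and 21.8 TPM in the group means, so its reads could have been split between the genes.

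Of the 30 accessory subunits, 24 rose, 1 fell and 5 did not pass the test, and under median-of-ratios scaling 29 rose and 0 fell. All 11 NDUFB subunits of the distal membrane arm rose, with a median of 0.49, as did 7 of the 9 proximal membrane subunits (median 0.92), 4 of the 6 matrix-arm subunits (median 0.73) and 2 of the 4 subunits at the interface of the arms or shared with other pathways (median 0.33). After removal of the length and expression trend, 15 accessory subunits rose and 7 fell. Across all tested genes 21.1% rose and 50.9% fell in the TPM as deposited, and these shares were not counted under other scalings.

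The proximal membrane subunits held the largest changes. NDUFA3, a small membrane subunit (ENSG00000170906, chromosome 19, 54102728 to 54109257, plus strand), was at 49.67, 57.63 and 50.09 TPM in control and 236.11, 197.90 and 272.73 TPM in shFAM111B libraries. Its lowest shFAM111B library was over every control library by a wide margin, the group means differed 4.49-fold, and the log2 fold change was 2.14 ± 0.121 (limma adjusted p = 8.26e-06) and between 1.56 and 2.59 under the other scalings. TFPT, on the opposite strand, shares 157 exonic bases with it and was at 13.6 and 33.7 TPM in the group means. The labels name a stranded library kit, but the strand setting of the counting is not given in the sources used here.

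NDUFA13, also known as GRIM-19, was the most abundant subunit of every shFAM111B library. It was at 583.41, 590.76 and 620.59 TPM in control and 1615.71, 1434.49 and 1876.04 TPM in shFAM111B libraries. NDUFA1, a small subunit encoded on the X chromosome, was at 240.58, 275.94 and 240.91 TPM in control and 608.76, 617.40 and 723.04 TPM in shFAM111B libraries. Both genes had groups far apart, with log2 fold changes of 1.45 ± 0.0943 and 1.36 ± 0.0858 (limma adjusted p = 1.41e-05 and 1.24e-05), and both stayed positive under every scaling. NDUFA13 shares 437 exonic bases with the same-strand gene AC011448.1, at 10.5 and 18.2 TPM in the group means. NDUFA10, a matrix-facing member of this group, was at 45.25, 51.25 and 50.23 TPM in control and 47.87, 42.52 and 41.51 TPM in shFAM111B libraries. Its groups overlapped, and its log2 fold change of -0.15 ± 0.0783 did not pass the test (limma adjusted p = 0.122). It was called higher, at 0.29, under median-of-ratios scaling and lower, at -0.28, after rescaling to nuclear protein-coding genes (limma adjusted p = 0.0151 and 0.0265).

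In the distal membrane arm the rises ran from 0.26 for NDUFB4 to 1.14 for NDUFB9 on the log2 scale. NDUFB9, a subunit of the LYR protein family, was at 350.71, 340.89 and 360.31 TPM in control and 766.20, 722.54 and 843.02 TPM in shFAM111B libraries. NDUFB7, which faces the intermembrane space, was at 226.10, 212.70 and 238.37 TPM in control and 490.91, 431.61 and 529.47 TPM in shFAM111B libraries. Neither gene had overlapping groups, and the log2 fold changes were 1.14 ± 0.0627 and 1.09 ± 0.0826 (limma adjusted p = 7.44e-06 and 2.59e-05). NDUFB2 followed at 0.97 ± 0.0647 (limma adjusted p = 1.55e-05). The rise of NDUFB7 went to 0.00 when the length and expression trend was removed, NDUFB3, NDUFB4, NDUFB8 and NDUFB10 then turned to between -0.43 and -0.14, and NDUFB4 also turned to -0.03 under quantile normalization.

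The matrix arm held both directions. NDUFS6, a zinc-binding subunit needed late in assembly, was at 192.01, 192.84 and 193.56 TPM in control and 436.79, 385.70 and 481.80 TPM in shFAM111B libraries. NDUFA2, a thioredoxin-like subunit of the N module, was at 116.60, 122.32 and 117.65 TPM in control and 235.66, 234.44 and 274.46 TPM in shFAM111B libraries. Both stood apart from the controls, with log2 fold changes of 1.16 ± 0.0791 and 1.05 ± 0.0696 (limma adjusted p = 1.66e-05 and 1.49e-05). NDUFV3, the least abundant subunit of every control library, was at 9.57, 8.06 and 10.19 TPM in control and 18.12, 20.65 and 25.58 TPM in shFAM111B libraries. Its groups did not overlap, and it rose by 1.12 ± 0.142 on the log2 scale (limma adjusted p = 0.000321).

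NDUFA5, a subunit attached to the Q module, went the other way and was the only accessory subunit that fell. It was at 69.51, 64.91 and 63.53 TPM in control and 49.47, 50.22 and 48.86 TPM in shFAM111B libraries. The shFAM111B libraries lay close together below the controls, and the log2 fold change was -0.41 ± 0.0538 (limma adjusted p = 0.000397), which turned to 0.04 under median-of-ratios scaling, 0.00 under upper-quartile scaling and 0.23 after removal of the length and expression trend.

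At the interface, NDUFA7 rose by 0.88 ± 0.0501 (limma adjusted p = 8.43e-06), a value that turned to -0.08 without the length and expression trend, and NDUFA6, an LYR protein, rose by 0.49 ± 0.0922 (limma adjusted p = 0.00239). NDUFAB1, the mitochondrial acyl carrier protein, which also serves lipoic acid synthesis, was at 182.53, 169.51 and 180.78 TPM in control and 173.94, 170.67 and 192.80 TPM in shFAM111B libraries. Its groups overlapped and its log2 fold change was 0.01 ± 0.0611 (limma adjusted p = 0.882). This too depended on the scaling, with a call of 0.46 under median-of-ratios and of -0.67 after removal of the trend (limma adjusted p = 0.000253 and 9.29e-05). NDUFA9 had a log2 fold change of 0.17 ± 0.108 in the TPM as deposited and did not pass the test (limma adjusted p = 0.202). NDUFA7 and NDUFA9 share exonic bases on the same strand with other annotated genes. NDUFA7 shares 456 with AC010323.1, and NDUFA9 shares 606 with AC005832.4 and 1103 with AC005833.1. AC010323.1 was at 32.81 TPM in the control mean and at 15.96 TPM in the shFAM111B mean. AC005832.4 was listed at 0 TPM in the control mean and at 12.7 TPM in the shFAM111B mean, and AC005833.1 at 4.09 and 4.24 TPM. NDUFA7 also shares 89 exonic bases with RPS28 on the opposite strand, at 777.18 and 1911.3 TPM in the group means. The part of these overlaps in the values of NDUFA7 and NDUFA9 was not tested.

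The NDUFAF factors were split. NDUFAF3, NDUFAF4 and NDUFAF8 rose, NDUFAF1, NDUFAF5, NDUFAF6 and NDUFAF7 fell, and NDUFAF2 did not pass the test. Across all tested genes 21.1% rose and 50.9% fell, so the falls of 4 of the 8 factors are near the share in the whole table. NDUFAF4, which works with NDUFAF3 on the Q module, was at 37.91, 38.47 and 32.87 TPM in control and 71.96, 65.17 and 80.71 TPM in shFAM111B libraries. NDUFAF8, a partner of NDUFAF5, was at 56.43, 55.77 and 40.13 TPM in control and 125.35, 78.84 and 130.40 TPM in shFAM111B libraries. Both had groups apart, although control library 3 and shFAM111B library 2 of NDUFAF8 were low for their groups. The log2 fold changes were 0.97 ± 0.0971 and 1.10 ± 0.217 (limma adjusted p = 9.43e-05 and 0.00297), and that of NDUFAF8 was 0.37 and not called after removal of the length and expression trend. NDUFAF3 was at 91.78, 99.39 and 103.15 TPM in control and 135.10, 123.64 and 150.17 TPM in shFAM111B libraries, again without overlap (log2 fold change 0.47 ± 0.0819, limma adjusted p = 0.00165).

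The 4 factors that fell did so by less than NDUFAF4 and NDUFAF8 rose. NDUFAF6 fell about as much as NDUFAF3 rose. NDUFAF5, which hydroxylates an arginine of NDUFS7, was at 49.19, 46.38 and 45.15 TPM in control and 36.88, 34.49 and 37.73 TPM in shFAM111B libraries. NDUFAF7, an arginine methyltransferase that acts early in assembly, was at 12.49, 12.42 and 11.08 TPM in control and 7.94, 8.37 and 9.95 TPM in shFAM111B libraries. The groups of all 4 stood apart, and the log2 fold changes were -0.39 ± 0.0993 for NDUFAF1, a chaperone of the membrane arm, -0.36 ± 0.062 for NDUFAF5, -0.45 ± 0.0993 for NDUFAF6 and -0.42 ± 0.107 for NDUFAF7 (limma adjusted p = 0.00947, 0.00154, 0.00484 and 0.00991). These values sat near the median of all tested genes, and under median-of-ratios scaling they were 0.04, 0.09, -0.02 and 0.00 with no NDUFAF factor called lower. With shFAM111B library 3 alone against the controls, a fit that takes the lone library to vary like the controls and has fewer libraries behind it, NDUFAF1 and NDUFAF7 were at -0.30 and -0.25 and were not called (limma adjusted p = 0.0797 and 0.145). NDUFAF2, related to the subunit NDUFA12, was at 49.24, 52.57 and 52.30 TPM in control and 52.44, 58.21 and 57.75 TPM in shFAM111B libraries, groups that overlapped (log2 fold change 0.12 ± 0.0619, limma adjusted p = 0.109). It was called higher, at 0.57, under median-of-ratios scaling and lower, at -0.60, after removal of the trend (limma adjusted p = 0.000135 and 0.000201).

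Assembly factors with other names were also split. Of 12 such genes 3 rose, 4 fell and 5 did not pass the test, with a median of -0.12. For all tested genes the shares were 21.1% rising and 50.9% falling, with a median of -0.36. DMAC2, a distal membrane arm assembly factor, was at 52.25, 52.32 and 52.74 TPM in control and 28.19, 26.37 and 29.08 TPM in shFAM111B libraries, groups that stood far apart (log2 fold change -0.89 ± 0.0574, limma adjusted p = 1.36e-05). COA1 was lower by a log2 fold change of -0.53 ± 0.0543 and DMAC1 was higher by 0.90 ± 0.102 (limma adjusted p = 0.000106 and 0.000177). The fall of COA1 went to -0.09 without a call under median-of-ratios scaling.

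To compare members with each other free of the scaling of TPM, the median log2 level of the 37 subunits was taken off each library. Against this typical subunit, 15 subunits were higher and 10 lower in shFAM111B than in control cells. As the reference was the median of these same subunits, a split to both sides of it was fixed in advance and is no result. By this measure 9.18% of all tested genes were higher and 68.4% lower, which restates their lower median in the main fit. Of the NDUFAF factors 2 were higher and 5 lower. NDUFA3 gained 1.66 and NDUFS1 lost the most, at -1.64, on the log2 scale (limma adjusted p = 2.03e-06 and 4.43e-06). NDUFB4 rose in TPM but was lower than the typical subunit, by -0.21 (limma adjusted p = 0.0218). NDUFV1 and NDUFV2, the pair that takes electrons from NADH, were both lower by this measure, at -0.40 and -0.61 (limma adjusted p = 0.000277 and 6.66e-05). The measure keeps the trend of fold change on length and expression, and it was not run with that trend removed. The longest annotated coding sequences of NDUFV1 and NDUFV2, at 1392 and 756 bases, exceed the subunit median of 489.

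The order and spread of levels moved with these changes. The summed TPM of the 37 subunits was 7994 ± 43.9 in control and 13636 ± 1272 in shFAM111B cells (SD, n = 3), and core subunits made up 24.6% ± 0.219 and 19.5% ± 0.552 of that sum. By mean TPM, NDUFV1 went from rank 1 in control to rank 7 in shFAM111B cells, NDUFV2 from 3 to 10, NDUFA1 from 13 to 6 and NDUFA3 from 33 to 20. The standard deviation of log2 levels across the subunits was 1.31 ± 0.00606 in control and 1.54 ± 0.042 in shFAM111B libraries. Within the shFAM111B group, library 3, the one with the least short non-coding RNA, was the highest for 31 of 37 subunits. The part of that RNA in the spread was not tested, and with library 3 alone against the controls the subunit median was 0.70.

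Fold change went with coding length among the members, as it did in the whole table. Across the 37 subunits Spearman's rho between log2 fold change and the longest annotated coding sequence was -0.32, across the 45 subunits and NDUFAF factors -0.45, and across 11964 tested nuclear protein-coding genes -0.37, where genes share libraries and are not independent. With the longest transcript, the length used to remove the trend, rho was -0.27 across the subunits and -0.46 across the protein-coding genes. With control TPM, rho was 0.31 across the subunits and -0.03 across the protein-coding genes. In the class of up to 300 coding bases the median log2 fold change was 1.05 for 5 subunits and 0.55 for 253 protein-coding genes. From 300 to 600 bases it was 0.54 for 20 subunits and 0.22 for 1332 genes, from 600 to 1000 bases 0.82 for 6 subunits and -0.15 for 2229 genes, and from 1000 to 2000 bases 0.08 for 5 subunits and -0.52 for 4601 genes. NDUFS1, with 2223 coding bases, was the only subunit from 2000 to 4000 bases, at -1.16 against a median of -0.77 for 2690 genes. The part of transcript length in these differences was not tested beyond the removal of the trend, and the longest annotated sequence need not be the expressed one.

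The mitochondrially encoded core subunits went the other way in TPM. Of the 7 MT-ND genes 6 fell and MT-ND6 did not pass the test, with a median log2 fold change of -1.16. Leaving out MT-ND4L, whose reading frame overlaps that of MT-ND4, they summed to 39963 ± 825 TPM in control and 22664 ± 762 TPM in shFAM111B cells (SD, n = 3). Their ratio to the summed nuclear subunits was 5.00 ± 0.129 and 1.67 ± 0.207. MT-ND4L itself had the largest fall, from 19801 to 745 TPM in the group means (log2 fold change -4.74), against -1.06 for MT-ND4. The gap between these overlapping genes was not tested. With MT-ND4L included, the MT-ND sum was 59764 ± 1789 TPM in control and 23409 ± 838 TPM in shFAM111B cells. MT-ND3, at -0.39, turned to 0.07 under median-of-ratios scaling. MT-ND6, at 0.10, was called higher under that scaling, at 0.55, and without shFAM111B library 3, at 0.14 (limma adjusted p = 0.000100 and 0.0167), and lower after removal of the trend, at -1.09. Of the 40 nuclear subunits of complexes II to V examined, 32 rose and 5 fell, with a median log2 fold change of 0.79, beside 27 rises and 3 falls of the 37 complex I subunits and their median of 0.54. The shares of all tested genes were 21.1% and 50.9%. These 40 genes were counted only in the TPM as deposited. Their coding length went with fold change at a Spearman's rho of -0.73, and 13 had at most 300 coding bases, against 5 complex I subunits. The part of length in the 2 medians was not tested.

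Among the other NDUF-named rows, NDUFA4, which despite its name is a subunit of complex IV, was at 170.65, 173.28 and 157.69 TPM in control and 455.31, 465.09 and 568.51 TPM in shFAM111B libraries. Its groups stood far apart (log2 fold change 1.56 ± 0.0912, limma adjusted p = 9.31e-06), and it stayed positive under every scaling. Its paralogue NDUFA4L2, known as a hypoxia-induced gene, stayed under the filter with 0.77, 0.82 and 1.35 TPM in control and 0.45, 0.35 and 0.15 TPM in shFAM111B libraries, and so did the antisense gene NDUFB2-AS1, with 0.21 to 0.62 TPM in control and 0.58 to 1.36 TPM in shFAM111B libraries. The readthrough gene NDUFC2-KCTD14, which shares exons with NDUFC2, was at 7.69, 5.31 and 8.21 TPM in control and 6.13, 4.82 and 0.70 TPM in shFAM111B libraries, and did not pass the test (limma adjusted p = 0.14). The non-coding genes NDUFA6-DT and NDUFV2-AS1, both low, had log2 fold changes of -0.77 ± 0.277 and -0.42 ± 0.155 (limma adjusted p = 0.0393 and 0.0428), calls that were lost without the filter (adjusted p = 0.107 and 0.128).

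The accessory median lay above the core median in every scaling, at 0.61 against 0.08 in the TPM as deposited. It was 1.07 against 0.54 under median-of-ratios and 0.49 against -0.05 after rescaling to nuclear protein-coding genes. These scalings, like the upper-quartile one, divide each library by a constant, so they could hardly change the gap. Quantile normalization (0.44 against 0.02) and removal of the length and expression trend (0.22 against 0.00) could change it, and the gap was smaller in both. In the TPM as deposited the core median was -0.13 over the N module and 0.57 over the Q module. The gap was not tested. The NDUFAF median was -0.12 as deposited and turned to 0.33, 0.29, 0.25 and 0.14 under median-of-ratios, upper-quartile and quantile scaling and removal of the trend.

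**Figure D2:**
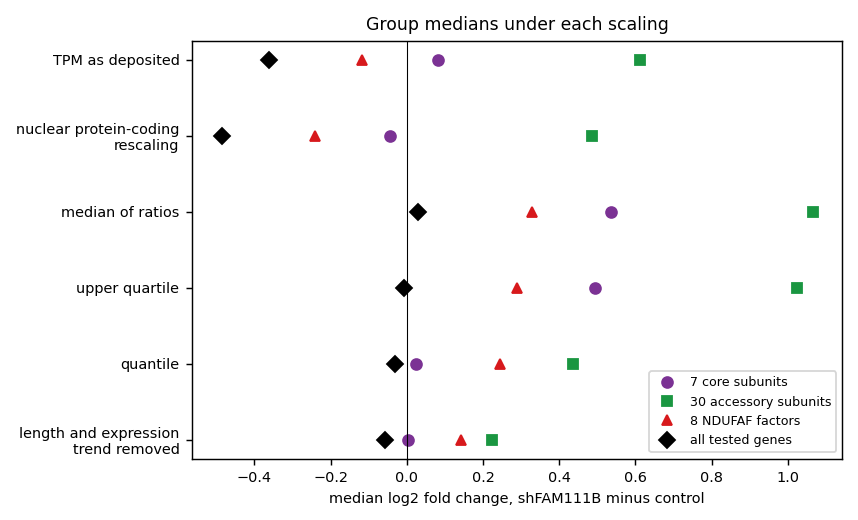
Median log2 fold change (shFAM111B minus control) of the core subunits, accessory subunits, NDUFAF factors and all tested genes under each scaling of the same TPM. The accessory median, from 0.22 to 1.07, is above the other 3 medians in each row, and the NDUFAF median changes sign between rows. Median-of-ratios, upper-quartile and nuclear protein-coding scaling shift all medians almost alike, so they could hardly change the gaps between them.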

How the data were processed

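Expression was taken from the TPM of 3 control and 3 shFAM111B Huh7 libraries, which the authors deposited in 1 table. The submitters' processing notes name RSEM, DESeq2 and hg38 without roles or versions, and the aligner, annotation and strand setting are not given in the sources used here. The authors' TPM group means, and the fold change as a ratio, its log2 and its p-value, which the authors deposited in the same table, were not used. The methods name a TruSeq kit and the labels a stranded mRNA kit. TPM hold no read counts, so the depth behind each value is unknown and no count test was run.

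The 14394 genes that reached 1 TPM in 3 or more libraries were tested on log2 values after adding a pseudocount of 1, with limma 3.58.1 (lmFit, eBayes with a trend, no covariate) in R 4.3.3. The script was tested on simulated data. Members were placed by hand-written lists, and members and lists were chosen with earlier results of these data known. The text gives values for core subunits and NDUFAF factors, up to 3 rises and 2 falls of each accessory class, the other NDUF-named rows, members below the filter or of opposite sign against the typical subunit, and the 3 other assembly factors with the smallest p. NDUFAB1, NDUFA9, NDUFA10 and NDUFB3, NDUFB8 and NDUFB10 were named after their values were seen. One member is not reported by name here but stays in every count, sum and median. GENCODE v29 (GRCh38) gave positions and coding lengths, and 96.3% of the listed genes (58420) matched it by identifier. Where a gene had several promoter entries, the one with the lowest coordinate was used. Alternatives covered the pseudocount, the filter, the scaling, each library left out, and a replicate block. With 3 libraries against 3, an exact permutation test cannot go below p = 0.1, so single sums and ratios are given without a test. Within a group, libraries correlated at 0.969 to 0.984 across tested genes and between groups at 0.865 to 0.883, and at most 0.889% of genes had identical TPM in 2 libraries.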

Additional observations from a re-analysis of the deposited data

How the results depend on the processing

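Scaling moved several of the counts. Shares of all tested genes were counted only in the TPM as deposited, so the member counts here have no background beside them. Under median-of-ratios and under upper-quartile scaling 18 subunits were higher and 0 lower at 2-fold, 35 were higher and 1 was lower at adjusted p, and 2 NDUFAF factors were higher at 2-fold, 4 higher and 0 lower at adjusted p, with subunit medians of 0.99 and 0.95 and NDUFAF medians of 0.33 and 0.29. NDUFA5 (0.041 and 0.0014), NDUFA10 (0.29 and 0.25), NDUFAF1 (0.0405 and 0.0018), NDUFAF5 (0.086 and 0.046), NDUFV2 (0.32 and 0.28) and MT-ND3 (0.066 and 0.025) turned positive. Quantile normalization gave 3 subunits higher and 0 lower at 2-fold, 2 NDUFAF factors higher at 2-fold, 0 lower and an NDUFAF median of 0.25, and reversed NDUFB4 (-0.029), NDUFAF1 (0.084), NDUFAF7 (0.10) and NDUFV1 (-0.38). Rescaling to nuclear protein-coding genes gave 5 subunits lower at adjusted p, 0 NDUFAF factors higher at 2-fold and medians of 0.42 and -0.24. Removing the length and expression trend (14263 genes with a length) gave 9 subunits lower at adjusted p, 4 higher and 0 lower at 2-fold, 2 NDUFAF factors lower, and medians of 0.22 and 0.14. It reversed NDUFB10 (-0.21), NDUFB3 (-0.43), NDUFB4 (-0.14), NDUFB8 (-0.30), NDUFA7 (-0.079), NDUFAB1 (-0.67), NDUFA12 (-0.35), NDUFA5 (0.23), NDUFS4 (-0.57), NDUFA10 (0.44), NDUFS5 (-0.17), NDUFAF2 (-0.60), NDUFAF5 (0.30) and MT-ND6 (-1.09). The cause of these shifts was not tested. With shFAM111B library 3 alone against the controls, a comparison added after the data were seen that takes the lone library to vary like the controls, 2 NDUFAF factors were lower at adjusted p and 2 higher at 2-fold, with medians of 0.70 and -0.039.

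Leaving out each library in turn gave 27 to 28 subunits higher and 2 to 3 lower at adjusted p, 7 to 12 higher at 2-fold, subunit medians of 0.50 to 0.59, NDUFAF medians of -0.14 to -0.07, and 1 to 2 NDUFAF factors higher against the typical subunit, NDUFAF8 being lost without shFAM111B library 3. NDUFAF factors higher at 2-fold numbered 0 without control library 3 or shFAM111B library 3 and 2 without control library 1, control library 2 or shFAM111B library 2. A pseudocount of 0.1, no filter (genes above 0 in at least 1 library) and a filter of 1 TPM in every library changed no call among the 45 subunits and NDUFAF factors. Libraries of the same replicate number correlated at 0.054, 0.0349 and 0.0908 in their deviations from the group means, all under 0.1, and shFAM111B library 2 correlated best with control library 1 (0.0442), so the numbers were not taken to pair samples. A replicate block left 27 subunits higher and 3 lower and changed none of the 45 calls. The TPM carry no depth, so counting error cannot be given.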
